A study of Mus musculus with 4 samples.

Results

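The Obox (oocyte-specific homeobox) family comprises homeobox genes and pseudogenes of the mouse, nearly all on chromosome 7, and was described here from every listed row whose gene symbol begins with Obox. There were 32 such symbols among 24190 symbols, each with 1 listed transcript: Obox3 and Obox6, which are annotated as protein-coding genes, and 30 symbols named as pseudogenes, of which 28 were copies of Obox4. Messenger RNA had been sequenced from E14 (ES-E14TG2a), a male mouse embryonic stem cell line, cultured in serum-free medium containing MEK and GSK3β inhibitors. A clonal line with the Zscan4c promoter driving GFP (GFP line, here the reporter line) and a clonal line with the same promoter driving a fusion of GFP to Zscan4c (GFP-Zscan4c line, here the fusion line) were each sorted into GFP-negative cells, labelled pluripotent, and GFP-positive cells, labelled 2C-like, meaning that they transcribe genes of the 2-cell embryo. The reporter thus sat in every population, each line is 1 clone, and each of the 4 populations is 1 library, so that line, construct and clone cannot be told apart and no value has a replicate error. Values are TPM, which are scaled for transcript length and to the same total in each full library. In bulk RNA a larger share of cells with a transcript and more of it per cell cannot be told apart.

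Homeobox genes encode transcription factors that bind DNA through the homeodomain, a fold of 3 helices whose last helix, the recognition helix, contacts the bases. In the mouse, several Obox genes are transcribed in the growing oocyte and stored in the egg, and others are switched on when the embryo's own genome is activated. The OBOX proteins are known to act in that activation, and Obox4 is known as a 2-cell gene able to take part in it beside Dux, the transcription factor that drives the 2C-like state in embryonic stem cells.

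The GENCODE M21 annotation, on the build that the submitters' processing notes name (GRCm38), holds 55 Obox symbols, 7 protein-coding and 48 pseudogenes. Of these, 53 lie within 1.51 Mb on chromosome 7 (chr7:14331436-15839678) and 2 on chromosome 17. The 23 symbols without a row, among them 5 protein-coding genes (Obox1, Obox2, Obox5, Obox7 and Obox8) and 18 pseudogenes, were not analysed here. Of the 8 annotated Obox3 transcripts only 1, a single-exon transcript with a retained intron, was listed, so the coding transcripts of Obox3 were not analysed here either. Obox6 (chr7:15833241-15839678, minus strand) was listed with its 3-exon coding transcript.

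The Obox4 copies carry the sequence that gives the family its name. In 26 of the 32 listed transcripts, translation in any frame found the recognition helix signature of the homeodomain (tryptophan, phenylalanine, any residue, asparagine, any residue, arginine). In 18 of them the whole homeobox of 60 codons was present without a stop, namely in 16 Obox4 copies with 3 exons, in Obox6 and in Obox6-ps1. The homeobox of Obox4-ps12 (chr7:15139546-15141484, plus strand) and that of Obox6, from the GENCODE M21 transcripts, are shown to compare a copy named as a pseudogene with a protein-coding gene of the family, with the 18 bases of the signature in capitals.
Obox4-ps12: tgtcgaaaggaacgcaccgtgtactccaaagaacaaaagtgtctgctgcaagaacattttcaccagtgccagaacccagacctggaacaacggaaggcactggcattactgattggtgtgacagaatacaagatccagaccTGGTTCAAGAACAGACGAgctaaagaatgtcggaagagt
Obox6: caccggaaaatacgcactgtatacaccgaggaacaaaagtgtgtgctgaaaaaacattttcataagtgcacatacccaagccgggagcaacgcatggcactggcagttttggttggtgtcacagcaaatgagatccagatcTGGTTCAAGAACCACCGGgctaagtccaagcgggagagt
These 180 bases were 72.8% identical, and 23 of the 60 codons encoded different residues. Within the Obox4 copies the homeobox hardly varied. It was identical to that of Obox4-ps12, itself included, in 12 of the 16 copies with 3 exons. Counted from 1 at the first base of the homeobox, Obox4-ps16 differed by C69G, Obox4-ps29 by G173A, Obox4-ps27 by G14A and A156G, and Obox4-ps31 by C13T, C18T, G52A and C63T.

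Most of the 3-exon copies were also free of stops beyond the homeobox. In 14 of the 16, a reading frame from an ATG covered over 95% of the annotated transcript. It ran from base 1 through 453 codons to a stop in Obox4-ps12, Obox4-ps27 and Obox4-ps28. In Obox4-ps15, Obox4-ps19, Obox4-ps20 and Obox4-ps21 it ran from base 1 through 380 codons to the annotated end without meeting a stop. In the 7 others it began at base 35 or 36, because their annotation starts 1 or 2 bases into the first ATG, as the beginnings of these transcripts show, with that ATG in capitals.
Obox4-ps12: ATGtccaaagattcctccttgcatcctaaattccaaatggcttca
Obox4-ps13: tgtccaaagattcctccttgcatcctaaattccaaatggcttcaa
Obox4-ps18: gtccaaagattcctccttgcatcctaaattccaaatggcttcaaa
The 2 copies outside this count were Obox4-ps31, with a frame of 343 codons, and Obox4-ps29, with 157. The 12 remaining Obox4 copies had 1 or 2 exons, and several, such as Obox4-ps36 (chr7:14767725-14768447, plus strand), began at the recognition helix and so lacked the start of the homeobox. Obox4-ps1 (chr7:14517971-14518670, minus strand), a more distant copy, began there too, as their first bases from the signature on show, with the signature in capitals.
Obox4-ps36: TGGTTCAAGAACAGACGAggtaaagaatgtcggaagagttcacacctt
Obox4-ps1: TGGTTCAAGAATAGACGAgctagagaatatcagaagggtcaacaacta

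The tables were first checked for how far a low value can be trusted. Their listed TPM summed to between 66.6% and 69.1% of the full TPM total, and TPM keep no read depth. One library was unlike the rest: GFP-negative cells of the reporter line had 48.4% of symbols listed at 0 against 11.6% to 19.5% in the others. Among symbols averaging 5 to 20 TPM in the remaining libraries, 35.8% were listed at 0 there, against 0.275% to 1.68% elsewhere, and of the 32 Obox symbols 26 were, against 15 in GFP-negative cells of the fusion line. A value listed at 0 in that library is therefore not read as absence, and the fusion line gives the same comparison without it.

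The listed part of the family was at or near 0 in GFP-negative cells and abundant in GFP-positive cells of each line. Nearly all of that listed level was Obox4 copies. Summed over the 30 pseudogenes, the reporter line had 1.03 TPM in its GFP-negative and 196 TPM in its GFP-positive cells, and the fusion line 1.56 TPM and 474 TPM. GFP-positive cells thus had 190 times the summed level in the reporter line and 304 times in the fusion line. Quantile normalization, which sets the 4 libraries to the same distribution, gave 12.2 times in the reporter line, where zeros are many, and 185 times in the fusion line. No Obox symbol was above 1 TPM in either GFP-negative library, where 43.5% (reporter line) and 55.3% (fusion line) of all symbols were. In GFP-positive cells 26 of the 32 were above 1 TPM in the reporter line, 25 of them pseudogenes, where 58.5% of all symbols were. In the fusion line 25 were, all pseudogenes, where 59.4% of all symbols were.

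**Figure D1:**
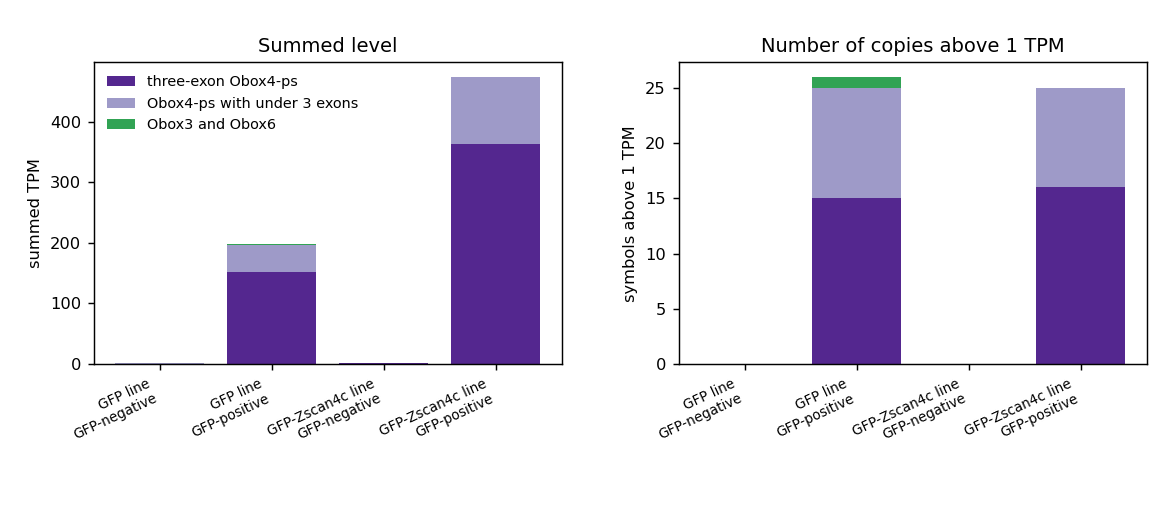
Left, TPM summed over Obox4 copies with 3 exons, over Obox4 copies with fewer, and over Obox3 and Obox6, in each of the 4 libraries; right, the number of those symbols above 1 TPM. Both GFP-positive libraries hold 25 or 26 copies above 1 TPM and the GFP-negative libraries hold 0, while the summed level is higher in the fusion line; Obox3-ps8 and Obox6-ps1, each under 0.2 TPM throughout, are not drawn.

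Member by member, 30 of 32 symbols had the higher level in GFP-positive cells of the reporter line and none the lower, and 31 of 32 in the fusion line and none lower, where 61.3% and 61.9% of all symbols were higher. Ratios were taken of log2(TPM + 1), where the added 1 TPM shrinks changes at low levels. By them 26 of 32 were 2-fold or more higher in the reporter line (23.9% of all symbols) and 25 of 32 in the fusion line (7.14% of all symbols). None was 2-fold or more lower in either line, where 5.11% and 2.79% of all symbols were. With no member above 0.238 TPM in GFP-negative cells, a 2-fold fall was not possible, so nothing is read from that count. Nor could the 26 members listed at 0 in GFP-negative cells of the reporter line, or the 15 in the fusion line, be lower at all. Members at 5 TPM or more in either library numbered 15 in the reporter line and 21 in the fusion line. They reached that level only in GFP-positive cells, and no member was above 0.238 TPM in GFP-negative cells, so that all of them had to be 2-fold or more higher and nothing is read from it. Among all symbols at that level 40.7% (reporter line) and 11.4% (fusion line) were 2-fold or more apart, 33.2% and 8.23% being higher and 7.48% and 3.14% lower. The median log2 ratio of the 32 members was 2.46 and 3.73 in those lines, and that of all symbols 0.12 and 0.08. Near-identical copies share reads, so these members are not independent of each other.

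The copies with the highest levels had 3 exons. Obox4-ps21 was listed at 0 TPM in GFP-negative and at 14.2 TPM in GFP-positive cells of the reporter line, and at 0.0944 and 30.7 TPM in the fusion line. Obox4-ps27 was listed at 0 and at 13.5 TPM, then at 0.0847 and 31.2 TPM. Obox4-ps18 was listed at 0 and at 14.3 TPM, then at 0.108 and 30.1 TPM. For each of these the GFP-positive libraries were both high and the GFP-negative ones both at or near 0, with the fusion line above the reporter line. Obox4-ps15 followed, listed at 0 and at 13.2 TPM, then at 0.153 and 30.7 TPM. Obox4-ps12, 1 of the 3 with the longest reading frame, was listed at 0 and at 12.8 TPM, then at 0.0822 and 30.3 TPM. Summed over the 16 copies with 3 exons, the level was listed at 0 and at 152 TPM in the reporter line and at 1.08 and 363 TPM in the fusion line. These copies thus made up 76.4% and 76.6% of the GFP-positive level of the listed Obox symbols.

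**Figure D2:**
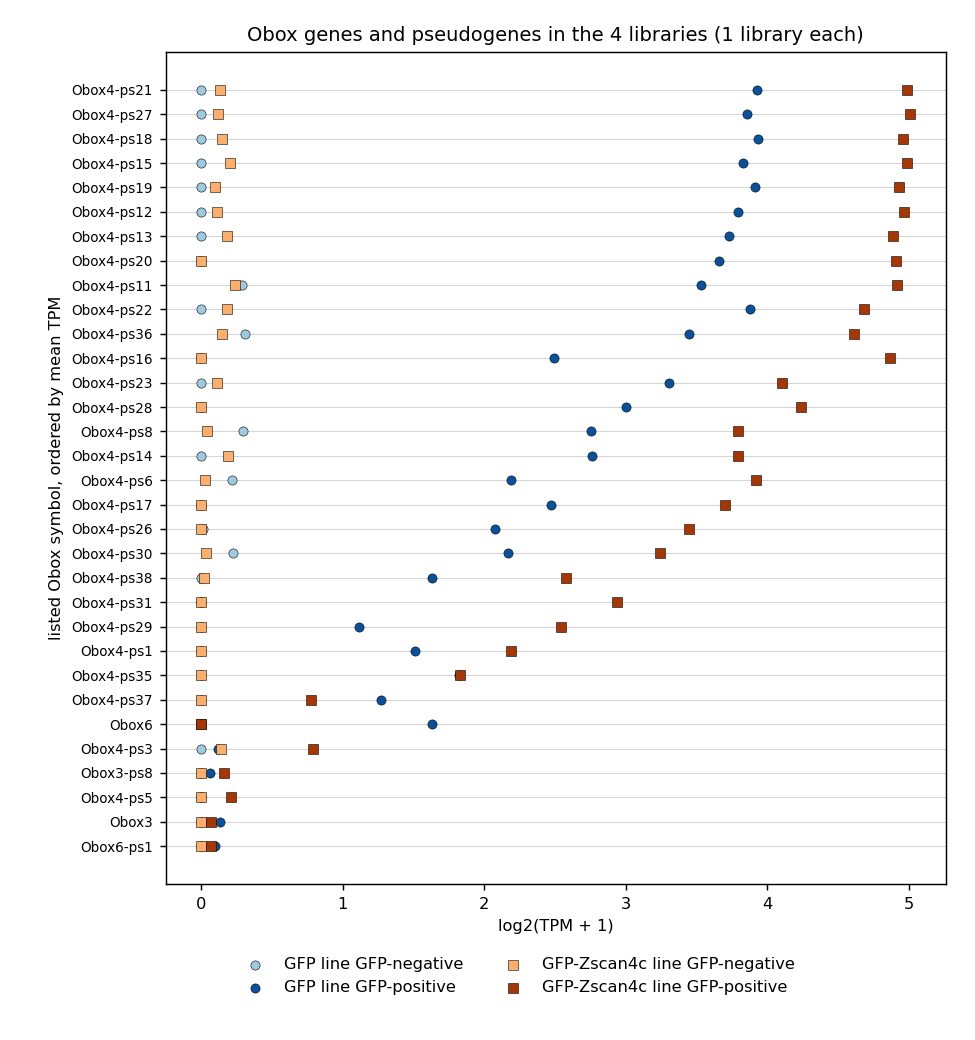
Level of each of the 32 listed Obox symbols on the log2(TPM + 1) scale, in order of mean TPM, with 1 point per library (circles for the reporter line, drawn as GFP line, squares for the fusion line, drawn as GFP-Zscan4c line). GFP-negative points lie near 0 for every symbol, and GFP-positive points spread from near 0 for Obox3 and Obox6-ps1 to 14.3 and 31.2 TPM for the highest Obox4 copies.

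The 3-exon copies were not all listed at the same level. Obox4-ps18, Obox4-ps19, Obox4-ps20, Obox4-ps21 and Obox4-ps22 have identical sequence over the bases they share, so a read within those bases cannot be assigned to 1 of them. Their TPM lay between 11.6 and 14.3 in GFP-positive cells of the reporter line and between 24.7 and 30.7 in those of the fusion line, a spread of 1.23 and 1.24 times. Differences between copies within that spread are not read here, and some copies lay further apart. Obox4-ps14 was at 5.77 and 12.9 TPM, Obox4-ps17 at 4.54 and 11.99 TPM and Obox4-ps28 at 7.002 and 17.9 TPM in the GFP-positive libraries of the reporter line and the fusion line. Obox4-ps17 and Obox4-ps28 have no stretch of 50 bases that is theirs alone, and only 0.742% of those of Obox4-ps14 are. The values of these copies are therefore not read as differences between copies either. Obox4-ps29 was lower still, at 1.17 and 4.84 TPM in the GFP-positive libraries of the reporter line and the fusion line. Obox4-ps31 was listed at 0 in GFP-positive cells of the reporter line and at 6.67 TPM in those of the fusion line.

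How far reads can be assigned to a copy was described by the share of 50-base windows of its transcript that occur in no other gene among the GENCODE M21 transcripts, on either strand. Of the 32 members, 7 had no such window: Obox4-ps17 to Obox4-ps22 and Obox4-ps28. These 7 held 40.0% of the listed members' TPM in GFP-positive cells of the reporter line and 36.6% in those of the fusion line. Across the 28 Obox4 copies, which share reads and libraries, TPM was lower where this share was higher (Spearman's rho -0.78 and -0.73, as a description). Identity to Obox4-ps12 followed the same order, with rho 0.83 and 0.81. The part of read sharing in these levels was not tested.

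The copies with sequence of their own were also higher in GFP-positive cells, at lower levels. Obox4-ps1, whose 50-base windows are all its own, was listed at 0 and at 1.84 TPM in the reporter line and at 0 and 3.56 TPM in the fusion line. Obox4-ps35 (chr7:15820167-15825815, minus strand), annotated as a long intergenic RNA with 2 exons and likewise unique, was listed at 0 and at 2.54 TPM, then at 0 and 2.56 TPM. Both were above 1 TPM in the GFP-positive libraries and listed at 0 in the GFP-negative ones. Obox4-ps37, unique in all its 100-base windows, was listed at 0 and at 1.42 TPM, then at 0 and 0.713 TPM. Obox4-ps3 was low throughout, at 0 and 0.0845 TPM, then at 0.104 and 0.728 TPM. Summed over the pseudogenes whose 100-base windows are all their own, which are these 4 and Obox6-ps1, the GFP-positive level was 73.2 times the GFP-negative one in the fusion line, and the GFP-negative library of the reporter line listed all of them at 0. The GFP-negative level in the fusion line was the 0.104 TPM of Obox4-ps3 alone, so the size of that ratio is not read.

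Of the shorter copies, 7 were close to the array in sequence, at 95.7% to 99.3% identity to Obox4-ps12 over their length, and 11.4% to 59.6% of their 50-base windows were their own, against 0% to 24.2% for the copies with 3 exons. They included the only members above 0 in the GFP-negative library of the reporter line. Obox4-ps36 was at 0.238 and 9.89 TPM in the reporter line and at 0.107 and 23.4 TPM in the fusion line. Obox4-ps11 was at 0.223 and 10.6 TPM, then at 0.177 and 29.3 TPM. The other members above 0 in that reporter-line library were Obox4-ps8, Obox4-ps6, Obox4-ps30 and Obox4-ps26, at 0.0105 to 0.227 TPM, while all 16 copies with 3 exons were listed at 0 there. Among GFP-negative cells of the fusion line 10 of those 16 were above 0, at up to 0.153 TPM. Over the 5 members above 0 in all 4 libraries, all of them shorter copies (Obox4-ps6, Obox4-ps8, Obox4-ps11, Obox4-ps30 and Obox4-ps36), every GFP-positive value was above every GFP-negative one.

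**Figure D3:**
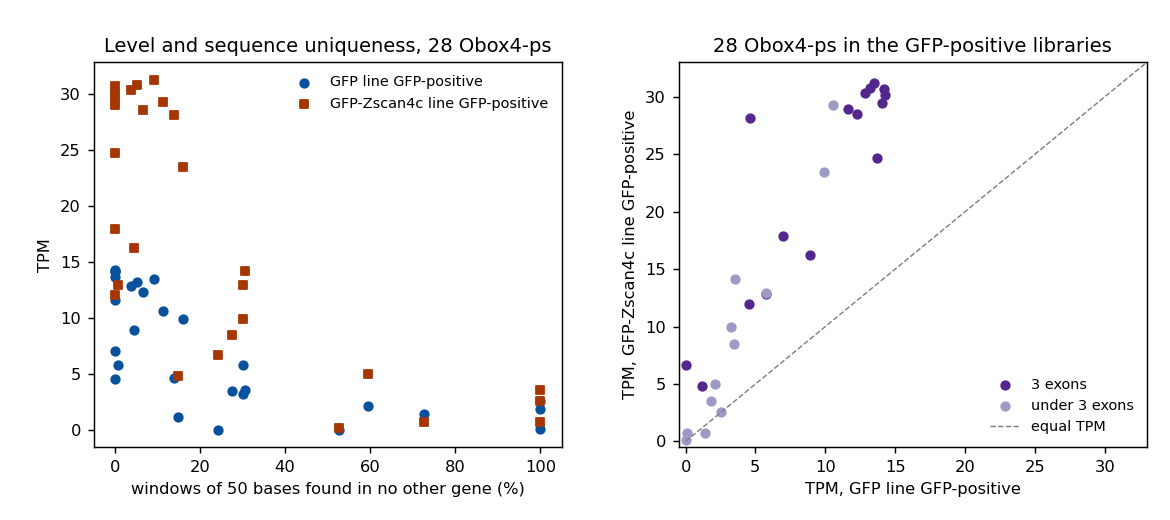
Left, TPM of the 28 Obox4 copies in both GFP-positive libraries against the share of their 50-base windows found in no other gene; right, TPM of the same copies in the GFP-positive library of the fusion line against that of the reporter line, with a dashed line of equal TPM. Copies with few windows of their own reach 31.2 TPM and copies with only such windows stay under 4 TPM, and 27 of the 28 lie above the line of equal TPM.

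Outside the Obox4 copies the listed members were low. Obox6, known as a gene of the early embryo, was listed at 0 and at 2.09 TPM in the reporter line and at 0 in both libraries of the fusion line. A single library thus carried all of its signal. The retained-intron transcript of Obox3 was listed at 0 and at 0.0970 TPM, then at 0 and 0.0510 TPM. On chromosome 17, Obox3-ps8 was listed at 0 and at 0.0431 TPM, then at 0 and 0.118 TPM, and Obox6-ps1 at 0 and 0.0712 TPM, then at 0 and 0.0510 TPM. Both are processed pseudogenes, that is, copies made from spliced RNA, and Obox3-ps8 has a frame of 319 codons. Obox4-ps5 was at 0.160 TPM in GFP-positive cells of the fusion line and listed at 0 in the 3 other libraries.

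The members were also compared with the genes lying between and beside them. Obox4-ps12 to Obox4-ps23 are 12 copies in the same orientation within 126 kb (chr7:15139546-15265656), with 11079 to 11369 bases from start to start. All 12 were at or near 0 in GFP-negative cells and between 4.54 and 14.3 TPM or between 11.99 and 30.7 TPM in the GFP-positive libraries of the reporter line and the fusion line. Of the other genes annotated inside the Obox region, 17 were listed, and 3 of them reached 1 TPM in any library. Mrip-ps, a pseudogene 4759 bases from the nearest Obox copy, was at 16.6 and 19.8 TPM in GFP-negative and GFP-positive cells of the reporter line and at 14.4 and 17.6 TPM in those of the fusion line. Crxos, a homeobox gene 42939 bases beyond Obox6, was at 18.3 and 28.5 TPM, then at 12.5 and 20.9 TPM. Over the 20 listed neighbours within 100 kb, 1 was 2-fold or more higher (Gtpbp4-ps6) and 1 lower (Snord23, at 4.97 and 0.367 TPM) in the reporter line, and 0 were higher or lower in the fusion line. Of all symbols, 23.9% were higher and 5.11% lower in the former and 7.14% and 2.79% in the latter. Only 6 of the 20 neighbours reached 1 TPM in any library, and the others could not be 2-fold apart by log2(TPM + 1). The neighbours' counts are therefore not read against those shares. The neighbours' median log2 ratios were 0.00 and 0.08. Obox4-ps27 to Obox4-ps30 lie within the span of Obox1 on the same strand, and Obox4-ps30 and Obox4-ps31 within that of Obox3 on the other strand. The labels' protocols describe no step that keeps strand, and reads of those genes were not told apart here.

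**Figure D4:**
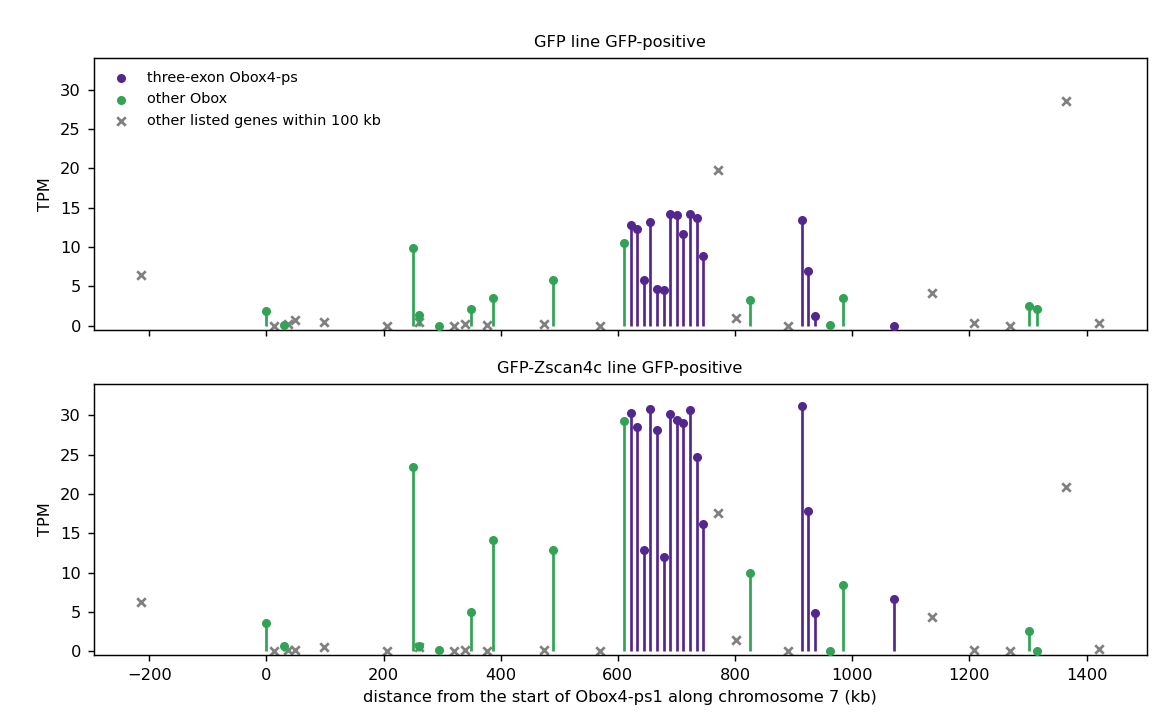
TPM of the Obox members on chromosome 7 and of the other listed genes within 100 kb of an Obox gene, by distance in kb from the start of Obox4-ps1, in the GFP-positive library of the reporter line (top) and of the fusion line (bottom). The 12 evenly spaced copies from Obox4-ps12 to Obox4-ps23 reach 14.3 and 30.7 TPM, with no other listed gene between them. Most other listed genes of the region lie near 0, and Mrip-ps (19.8 and 17.6 TPM) and Crxos (28.5 and 20.9 TPM) stand out among the neighbours.

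Between the GFP-positive libraries, most listed Obox levels were higher in the fusion line. Of the 32 members, 28 were higher there (53.7% of all symbols), 20 of them 2-fold or more (4.79% of all symbols), and 1, Obox6, was 2-fold or more lower (3.91%). Of the 21 at 5 TPM or more in either library 19 were 2-fold or more higher and 0 lower. Among all symbols at that level 9.76% were 2-fold or more apart, 5.71% higher and 4.05% lower. All 21 members reached that level in the fusion line and 15 in the reporter line, so some passed only through the library where they were higher. Near-identical copies also share reads, so nothing is read from that count. The pseudogenes together were at 196 and 474 TPM, a ratio of 2.42. Among the 24 Obox4 copies above 1 TPM in both, the ratio of TPM ran from 1.01 for Obox4-ps35 to 6.09 for Obox4-ps16, with a median of 2.34. It was 1.28 over the pseudogenes whose 100-base windows are all their own. Of these, Obox4-ps37 and Obox6-ps1 were lower in the fusion line, and Obox4-ps1, Obox4-ps3 and Obox4-ps35 higher. With Obox6, whose 100-base windows are likewise its own, their sum was 8.05 TPM in the reporter line and 7.61 TPM in the fusion line. The direction of this sum rested on Obox6, listed at 2.09 TPM in the reporter line and at 0 TPM in the fusion line. Members with only part of their windows their own are not in the sum, so nothing is read about them. The fixed list of 2C-like markers summed to 1239 and 2318 TPM in the same libraries and so moved in the same direction. Its highest genes were Zscan4 genes, the sort used the Zscan4c promoter, and the fusion construct itself carries Zscan4c. Reads of the construct and of the Zscan4 genes were not told apart here, so that sum is not independent of the sort or the construct. With 1 library each, construct, clone and the purity of the sort cannot be told apart, and the difference was not tested.

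Over both lines, limma fitted GFP status with line as a term, on the 14379 symbols that reached 1 TPM in 2 or more libraries, with a two-sided test and Benjamini-Hochberg adjustment. With 1 residual degree of freedom the error is the disagreement between the lines, moderated across symbols. The 24 Obox members in this fit were all Obox4 copies that passed the filter through the GFP-positive libraries alone, so a difference was built into their selection. None of the 24 passed an adjusted p of 0.05 in limma, where 0% of all symbols did, and their adjusted p lay between 0.460 and 0.615. An unadjusted p under 0.05 was reached by 24 of the 24 in limma, against 6.76% of all symbols. Given that selection, and because near-identical copies share reads, nothing is read from this count. The estimated log2 ratio was 4.39 (SE 0.84) for Obox4-ps21, the highest, and 1.83 (SE 0.34) for Obox4-ps35, the lowest.

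Other genes of the same setting were taken from fixed lists. Of 20 genes that act in or mark activation of the 2-cell genome, 18 were listed. In the reporter line, 16 were at 5 TPM or more in either library. Of these, 9 were 2-fold or more higher (33.2% of all symbols at that level) and 1 lower (7.48%). In the fusion line 9 of 18 were higher (8.23%) and 0 lower (3.14%). The list's highest genes were the zinc finger genes Zscan4c (9.24 and 497 TPM, then 4.11 and 366 TPM), Zscan4f (0.174 and 170 TPM, then 0.0470 and 369 TPM) and Zscan4d (1.504 and 108 TPM, then 0.0957 and 362 TPM), and Klf5, a Krüppel-like factor gene (275 and 219 TPM, then 192 and 189 TPM). Zscan4c is tied to the sort by its promoter, and the fusion construct also carries it. Zscan4c, Zscan4d and Zscan4f are all among the genes counted as higher in each line. Reads of the construct and of these genes were not told apart here. Duxf3, the Dux gene of this annotation, was at 0.134 and 7.72 TPM, then at 0.378 and 7.36 TPM; it was named after its values were seen.

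Further homeobox genes, some of which are pluripotency factors, formed the other list. Of its 32 genes, 23 were listed, and 4 of 10 at 5 TPM or more were 2-fold or more higher in the reporter line, near the 33.2% of all symbols at that level, and 6 of 13 in the fusion line, against 8.23%. None was 2-fold or more lower, where 7.48% and 3.14% of all symbols were. The 6 higher in the fusion line were Duxbl1, Duxbl2, Duxbl3, Duxf3, Rhox13 and Pou2f1, named after their values were seen. Of these, Duxbl1 and Duxf3 are also in the list of activators, so the lists are not independent. Otx2, a relative of Crx, the homeobox gene next to which the Obox genes lie, was at 24.3 and 24.7 TPM, then at 55.6 and 62.1 TPM. Pou5f1, a pluripotency factor, was the list's highest gene, with 1447 and 1075 TPM in the reporter line and 1138 and 1103 TPM in the fusion line. For Nanog, another, the same libraries gave 387 and 419 TPM, then 299 and 359 TPM.

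Marker lists of the cell types were read beside these values. The 16 listed 2C-like markers summed to 12.8 to 13.6 TPM in the GFP-negative libraries and to 1239 to 2318 TPM in the GFP-positive ones, and the 10 pluripotency markers to 3103 to 6420 TPM and 5517 to 5715 TPM. The 2C-like list holds Zscan4c, which is tied to the sort by its promoter, and other Zscan4 genes. Of 20 oocyte markers, where maternal Obox genes are expressed, 5 were listed, and they summed to 0.374 to 2.29 TPM in the GFP-negative libraries and to 2.29 to 4.91 TPM in the GFP-positive ones, with 0 at 5 TPM in any library. Trophectoderm markers (5 listed) summed to 39.4 TPM in both GFP-negative libraries and to 32.5 and 41.4 TPM in the GFP-positive ones. Primitive endoderm markers (4 listed) summed to 155 to 249 TPM and 36.8 to 211 TPM, nearly all from Sparc, and fibroblast markers (3 listed) to 0 to 0.114 TPM and 7.42 to 11.9 TPM, nearly all from Thy1. The part of other cell types in the Obox values was not tested.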

How the data were processed

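Each of the 4 deposited tables gives TPM per transcript for 1 library. Per the submitters' processing notes, CASAVA, HISAT2 2.1.0 and StringTie 1.3.5 were used with GRCm38 (mm10), while options, annotation release and the treatment of reads that map to several places were not given in the sources used here. The authors' TPM were summed per symbol, and every symbol starting with Obox was kept. GENCODE M21 supplied positions, exons and sequences. Ratios used log2(TPM + 1). Genes 2-fold or more apart were counted without a test, at 5 TPM or more in either library where stated. limma 3.58.1 in R 4.3.3 (trend and robust options) was tested on simulated data. Windows of 50 and 100 bases were compared over all transcripts with Python 3.11.15 and Biopython 1.88. Reading frames ran from an ATG to a stop or the annotated end. TPM keep no read counts, so depth is unknown. Members and lists were chosen with earlier results of these data known. Obox genes with any library at 1 TPM, the 4 pseudogenes with the highest mean and the 4 highest genes of each of the activator and homeobox lists were to be named, and other members named were chosen after their values were seen. Alternatives covered pseudocounts, filters, scalings, thresholds, the line term and leaving out each library. No label says whether separate cultures were used. The error behind a p-value is the disagreement between the lines, moderated across symbols, and the lines differ in clone and construct. This error holds no replicate spread and may be partly technical.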

Additional observations from a re-analysis of the deposited data

Results flagged for a closer look

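Summed levels of 3 comparison lists moved in opposite directions in the lines, a difference that was not tested. The log2 ratio of GFP-positive to GFP-negative sums was -0.21 in the reporter line and 0.0936 in the fusion line for the homeobox genes, -0.22 and 0.88 for the pluripotency markers, and 0.0694 and -0.27 for the trophectoderm markers. Single genes carried some of these sums. Dppa5a, a pluripotency marker, was at 41.4 and 2280 TPM in the fusion line, and Pou5f1, in the homeobox list, at 1447 and 1075 TPM in the reporter line. No Obox member moved in opposite directions, for which their GFP-negative values at or near 0 left little room.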

How the results depend on the processing

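Results kept their direction under every alternative run. Over the 24 Obox copies in limma and 11 alternatives each, all 264 estimates were above 0. In 250 the copy stayed above an adjusted p of 0.05. In 14 it fell below it (lowest limma adjusted p 0.0182), all in the fit without the GFP-negative library of the fusion line. The fits without 1 library also dropped the line term, which 3 libraries cannot carry beside an error, and assumed that the arm with 1 library varies like the other. In the one that made these calls, that lone library was the GFP-negative library with many zeros, so the calls are not read as support. The ratio of summed pseudogene TPM became 12.2 (reporter line) and 185 (fusion line) under quantile normalization. It was 73.2 in the fusion line and 1.28 between GFP-positive libraries over pseudogenes with 100-base windows all their own, a choice made after seeing the data. The 73.2 has the 0.104 TPM of Obox4-ps3 alone as its GFP-negative level. Adding Obox6 to these pseudogenes, which was not among the alternatives run, gave 8.05 TPM in the reporter line and 7.61 TPM in the fusion line, the opposite direction. In GFP-positive cells the sum of Obox3 and Obox6 fell from 2.19 to 0.0970 TPM without Obox6 in the reporter line, and from 0.0510 to 0.0238 TPM under quantile normalization in the fusion line. At a threshold of 5 TPM, 15 pseudogenes and 0 other members counted in GFP-positive cells of the reporter line. The members' median log2 ratio was 4.90 and 6.64 with a pseudocount of 0.1 TPM and 0.94 and 1.81 with 5 TPM, in the reporter line and the fusion line, and 1.499 in the reporter line under quantile normalization. Members 2-fold or more apart in the reporter line numbered 15 with the floor of 5 TPM and 26 with a floor of 1 TPM or none. All genes 2-fold or more apart numbered 4503 and 1249, and with a floor of 1 TPM or none 7023 and 2402. limma called 0 genes, 3 with a pseudocount of 5 TPM, 316 under quantile normalization and 0 to 4204 when 1 library was left out. Without the line term (no replicate block) limma called 0 as well, and the lines' pairing changed no call. The cause of these changes was not tested.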
